A study of Homo sapiens with 4 samples.

Results

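The troponins and tropomyosins were examined as 10 genes: TNNC1 and TNNC2, TNNI1 and TNNI2, TNNT1, TNNT2 and TNNT3, and TPM1, TPM2 and TPM3. They were chosen by name from 20007 protein-coding genes, and every peak that touched the gene body or the 10 kb on either side of it was taken. Muscle contraction is switched by these proteins. Tropomyosin lies along the actin filament and covers the sites where myosin binds, and the troponin complex holds it there: troponin C binds calcium, troponin I inhibits the interaction with myosin, and troponin T anchors the complex to tropomyosin. Most of the troponin genes encode the form of a single fibre type (slow skeletal, fast skeletal or cardiac), and their expression is turned on when myoblasts differentiate.

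The data were 4 ChIP-seq libraries from the cell line RD, which derives from a fusion-negative rhabdomyosarcoma (FN-RMS), a tumor of the skeletal muscle lineage. The cells carried a lentiviral shRNA against SKP2, the substrate-binding subunit of an SCF ubiquitin ligase (shSKP2), or a non-targeting shRNA (shSCR), in a line labelled WT in both arms and kept in growth medium with serum. MYOD, the transcription factor that starts the muscle program by binding E-boxes (CANNTG), and H3K27ac, an acetylation of histone H3 found at active promoters and enhancers, were each profiled once per arm. Each group had 1 library, so the spread between replicates is unknown, no test between arms was possible, and the exact 95% intervals below cover counting error only. The arms rest on 1 cell line. The time between infection and fixation is not given in the sources used here, and the lists carry no measure of SKP2 itself.

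The lists differed in length. The H3K27ac lists held 38457 peaks in shSKP2 and 25356 in shSCR, and the MYOD lists held 8457 in shSKP2 and 5814 in shSCR. The total reads behind them are not part of the lists, so the lowest background level of a list was taken as a proxy of depth, which also scales with the fragment length assumed by the caller. It was 1.61 fragments in shSKP2 and 1.75 in shSCR for H3K27ac (ratio 0.920), and 1.94 in shSKP2 and 1.48 in shSCR for MYOD (ratio 1.31). The proxy was thus higher in shSKP2 for MYOD and lower in shSKP2 for H3K27ac, although both shSKP2 lists were longer. Muscle-lineage markers carried peaks: 8 of 9 had H3K27ac in shSKP2 and 7 of 9 in shSCR, and 8 of 9 had a MYOD peak in each arm. H3K27ac peaks alone did not set the lineage apart, since they were found in each arm at 3 of 4 markers of blood and endothelium, 3 of 4 of epithelium and liver, 3 of 3 of neurons and glia and 1 of 3 of smooth muscle. Of 5 cardiac markers, 1 had H3K27ac in shSKP2 and 2 in shSCR. No H3K27ac peak in either list was found at 1 of the 9 muscle-lineage markers, against 29.2% of all genes. MYOD peaks were found at 2 of 3 markers of neurons and glia and 1 of 5 cardiac markers in shSKP2, and at 0 of either in shSCR. In each arm they were found at 1 of 4 markers of blood and endothelium, and at 0 of those of epithelium and liver or smooth muscle. Over all genes the share with a MYOD peak was 30.6% in shSKP2 and 21.9% in shSCR. Whether a gene is transcribed cannot be read from these lists.

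H3K27ac covered more of the troponin and tropomyosin windows in shSKP2 than in shSCR at 8 of the 10 genes and less at 0 of them. TNNI2 and TNNT3, the fast-fibre troponin I and T, carried no peak of either antibody in either arm. Over all protein-coding genes 66.8% had more cover in shSKP2 and 3.92% had less, so most genes differed in the same direction. The windows of the 10 genes had a median length of 37.6 kb and those of all genes 47.5 kb. Cover summed to 18.9 kb in shSKP2 and 10.2 kb in shSCR, a ratio of 1.84, beside a ratio of 2.05 over the whole lists (23.7 Mb in shSKP2 and 11.6 Mb in shSCR). The cover was at least 2 times that of the control at TNNC1, TNNI1, TPM1 and TPM3, which is 4 of 10 genes against 35.9% of all genes. The share without H3K27ac in either arm was 2 of 10 against 29.2%. The median difference was 0.818 kb for these genes and 0.4 kb for all genes. The sum of the differences depended on the width of the window: it was 8.65 kb with flanks of 10 kb, 4.81 kb with flanks of 2 kb and 21.99 kb with flanks of 50 kb.

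**Figure D1:**
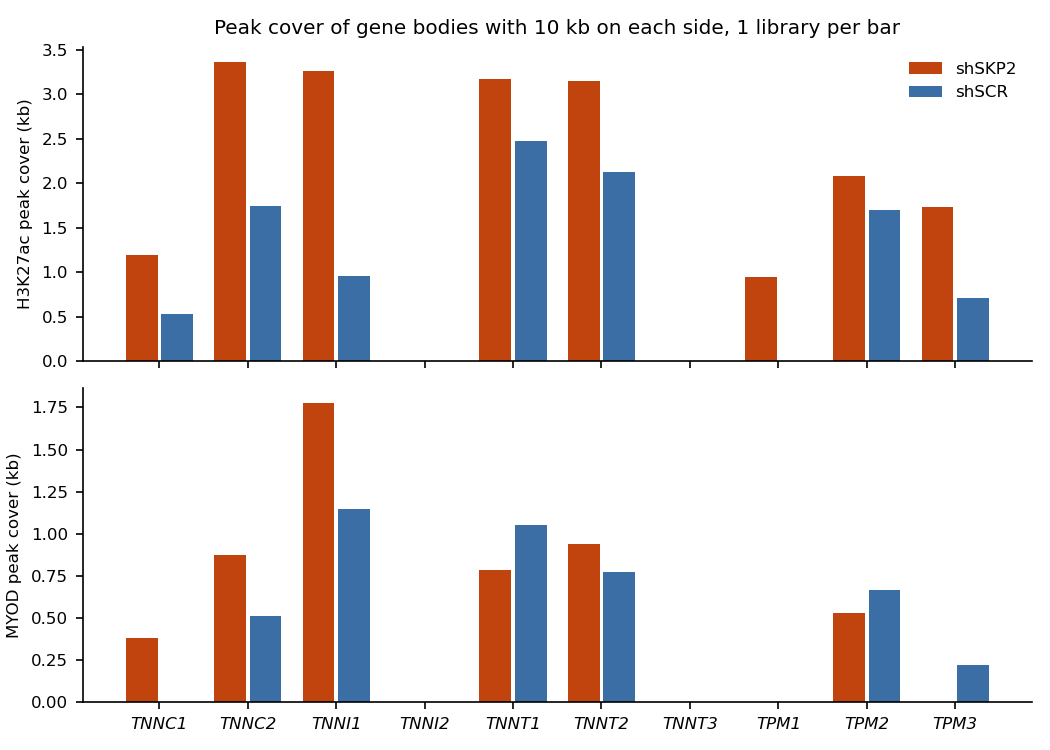
Base pairs under H3K27ac peaks (top) and MYOD peaks (bottom) in the window of each gene, in kb, with shSKP2 left of shSCR; each bar is 1 library and has no error bar. H3K27ac bars are taller in shSKP2 at 8 genes, and TNNI2 and TNNT3 have no bar in either panel.

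**Figure D2:**
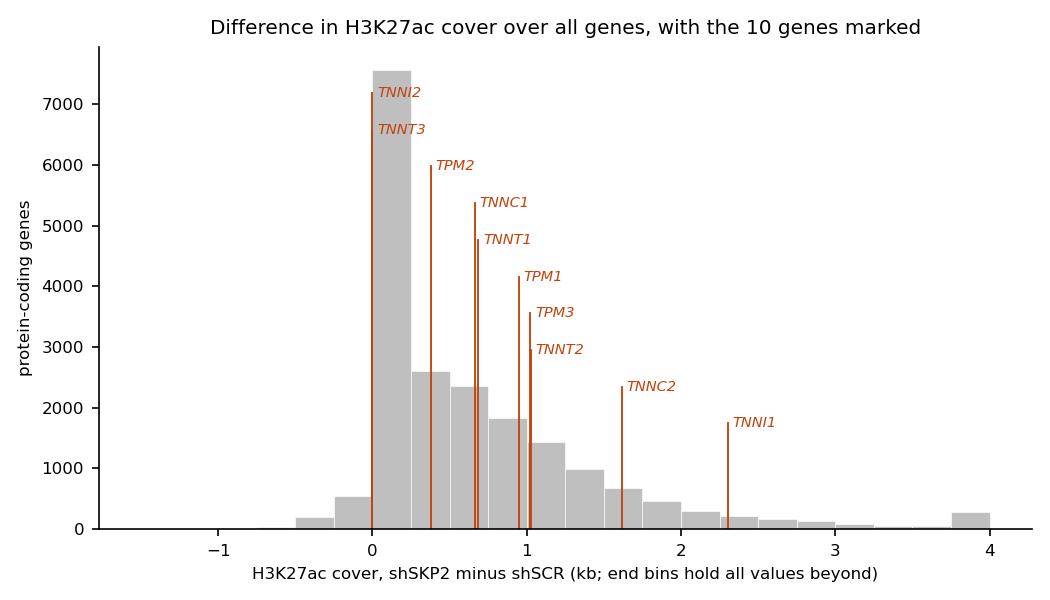
Distribution of the difference in H3K27ac cover, shSKP2 minus shSCR in kb, over 20007 protein-coding genes in bins of 0.25 kb, with the 10 genes marked by lines; line heights only separate the labels. The bin that starts at 0 holds the genes with no difference, TNNI2 and TNNT3 among them, and the line farthest to the right is TNNI1 at 2.30 kb.

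MYOD was found near 6 of the 10 genes in each arm, beside 30.6% of all genes in shSKP2 and 21.9% in shSCR. The genes with a MYOD peak in both arms were TNNC2, TNNI1, TNNT1, TNNT2 and TPM2, 5 of 10 against 17.5% of all genes. H3K27ac cover was higher in shSKP2 at all 5 of these, against 92.7% of the 3497 genes with MYOD in both arms, and at least 2 times the control at TNNI1 alone, against 45.7%. TNNC1 had a MYOD peak in shSKP2 alone and TPM3 in shSCR alone. The windows held 11 MYOD peaks in shSKP2 and 10 in shSCR. Of the control peaks, 7 of 10 were overlapped in shSKP2 (70.0%, exact interval 34.8 to 93.3%), against 64.1% of the whole control list. Of the knockdown peaks, 4 of 11 had no control counterpart, against 55.9% of the whole knockdown list, and they lay at 4 genes, against 20.1% of all genes with such a peak. MYOD cover summed to 5.28 kb in shSKP2 and 4.37 kb in shSCR. For H3K27ac, 7 of the 22 knockdown peaks had no control counterpart, against 48.6% of the whole knockdown list, and all 17 control peaks were overlapped in shSKP2, against 86.4% of the whole control list.

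**Figure D3:**
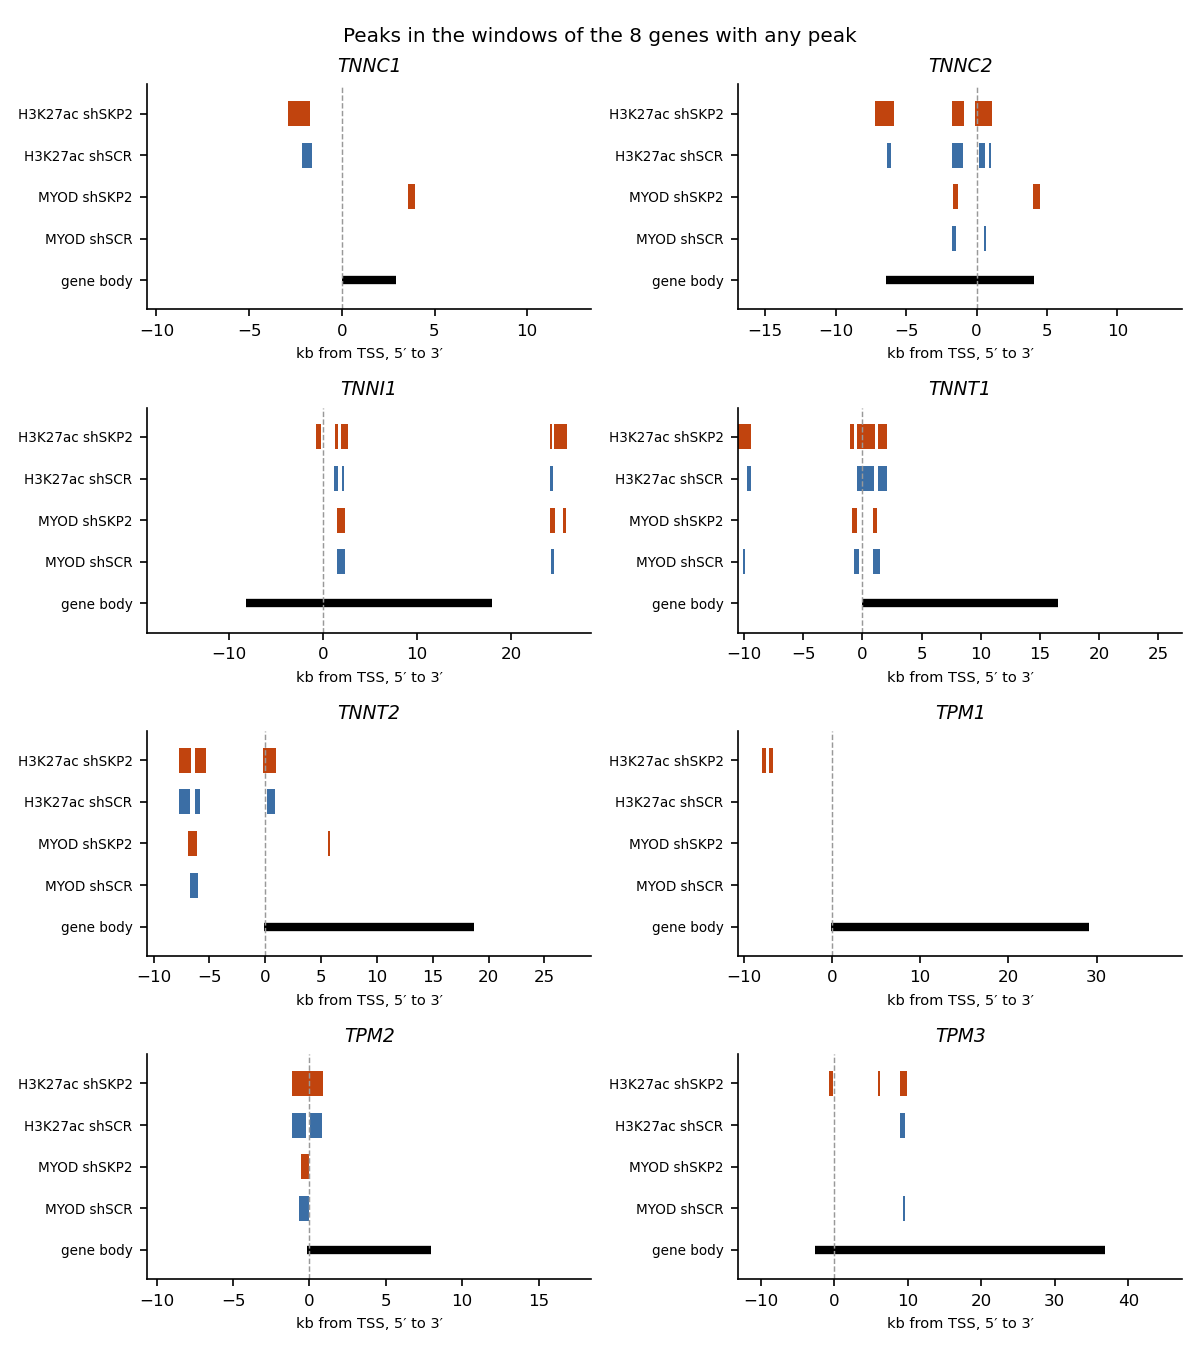
Peaks in the windows of the 8 genes that had any, in kb from the TSS of the canonical transcript and read 5′ to 3′; orange is shSKP2, blue is shSCR, and the black bar is the annotated gene body. MYOD peaks repeat between arms at TNNC2, TNNI1, TNNT1, TNNT2 and TPM2, and the H3K27ac blocks of shSKP2 cover more bases than those of shSCR at each of the 8 genes.

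Troponin C is the calcium sensor. TNNC1, its slow skeletal and cardiac form (chr3:52451100-52454041, hg38, minus strand), had 1 H3K27ac peak in each arm, of 1195 bp in shSKP2 and 530 bp in shSCR. The summit of this peak was nearer to another gene: it lay in intron 1 of the neighbour NISCH, 521 bp from the NISCH TSS in shSKP2 and 293 bp in shSCR. The 2 summits held nearly the same number of fragments, 22 in shSKP2 and 24 in shSCR, so that the arms differed in the width of the peak. Within 2 kb of the TNNC1 TSS the cover was 311 bp in shSKP2 and 398 bp in shSCR, and with 2 kb flanks the difference at TNNC1 turned to -0.087 kb. MYOD had a peak at TNNC1 in shSKP2 alone (chr3:52450071-52450452, 5.396-fold over background, 19 fragments at the summit). It lay 3878 bp downstream of the TSS, past the 3′ end of the gene, 5279 bp from the nearest H3K27ac peak of its own arm. The nearest MYOD peak of the control list was 233.9 kb from the gene. The 101 bases around its summit are shown because they hold both of the E-boxes that are frequent in the MYOD lists, CAGCTG and CAGGTG (E-boxes in capitals, plus strand of hg38).
TNNC1, shSKP2-only MYOD summit, chr3:52450113-52450213: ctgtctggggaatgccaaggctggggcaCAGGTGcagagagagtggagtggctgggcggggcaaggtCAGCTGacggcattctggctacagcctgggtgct

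TNNC2, the fast skeletal troponin C (chr20:45823214-45833745, minus strand), had H3K27ac at 3 places in both arms, 3.36 kb in shSKP2 and 1.75 kb in shSCR. At the start of the gene a single shSKP2 peak of 1240 bp, with 60 fragments at its summit, took the place of 2 shSCR peaks of 193 and 381 bp, with 33 and 32 fragments. The ratio of the highest summits was 1.82 (exact interval 1.17 to 2.87), above the depth ratio of 0.920. The block 1.2 to 1.6 kb upstream was alike in both arms, with 48 fragments and 819 bp in shSKP2 and 47 fragments and 827 bp in shSCR. Under this block lay the MYOD site that both arms shared, 1495 bp upstream of the TSS of the canonical transcript and within the annotated gene body, with 40 fragments (7.12-fold) in shSKP2 and 39 fragments (7.55-fold) in shSCR. The block farthest upstream was 1304 bp in shSKP2 and 345 bp in shSCR, but its summits lay 412 bp in shSKP2 and 176 bp in shSCR from the TSS of SNX21. MYOD peaks that were found in 1 arm stood at 4317 bp past the TSS, just beyond the 3′ end of the gene, in shSKP2 (4.92-fold, 23 fragments) and at 671 bp, in intron 1, in shSCR (4.05-fold, 22 fragments). Both had a single CAGCTG within 50 bp of the summit. The shared site is shown, since it had neither CAGCTG nor CAGGTG: its E-boxes were CAGATG and CAACTG, the first next to CATTCC on the other strand, the core of the motif read by TEAD factors.
TNNC2, shared MYOD site, chr20:45828757-45828857, plus strand: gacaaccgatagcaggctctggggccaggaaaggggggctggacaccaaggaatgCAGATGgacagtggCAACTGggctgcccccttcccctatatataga

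Troponin I is the inhibitory subunit. With flanks of 10 kb, TNNI1, the slow skeletal form (chr1:201403784-201429866, minus strand), had the largest difference in H3K27ac cover of the 10 genes, with 3.26 kb in shSKP2 and 0.955 kb in shSCR. This difference of 2.30 kb was larger than that of 95.4% of all genes. In intron 1, at 2.1 kb past the TSS, the H3K27ac peak was 722 bp with 40 fragments in shSKP2 and 202 bp with 18 fragments in shSCR. The ratio of 2.22 (exact interval 1.25 to 4.12) lay above the depth ratio, and the local background was 7.59 fragments in shSKP2 and 5.50 in shSCR. The next peak, at 1.5 kb, was 394 bp with 26 fragments in shSKP2 and 420 bp with 18 fragments in shSCR. A promoter peak 305 bp upstream of the TSS (495 bp, 28 fragments, 3.49-fold) was called in shSKP2 and not in shSCR. Between the intronic peaks lay a MYOD site in both arms, 860 bp wide with 40 fragments (5.402-fold) in shSKP2 and 858 bp wide with 28 fragments (4.76-fold) in shSCR. The MYOD ratio of 1.43 (exact interval 0.860 to 2.40) held the depth ratio of 1.31, as did that of the H3K27ac peak at 1.5 kb for its own depth ratio (0.762 to 2.80), whereas the H3K27ac peak at 2.1 kb lay above it.

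The rest of the TNNI1 peaks lay past the 3′ end, in intron 1 of LAD1, and were nearer to the start of LAD1 than to that of TNNI1. A MYOD site of both arms at 24425 bp from the TNNI1 TSS had 43 fragments (6.42-fold) in shSKP2 and 34 (6.24-fold) in shSCR. H3K27ac at 24224 bp was no wider in shSKP2 (251 bp, 24 fragments) than in shSCR (333 bp, 26 fragments). A second MYOD site, at 25576 bp, was called in shSKP2 alone (5.10-fold, 34 fragments), and an H3K27ac peak of 1396 bp (4.11-fold, 34 fragments) covered it in the same arm. The nearest H3K27ac peak of shSCR was 1125 bp away. This was the one MYOD site of the 10 windows called in shSKP2 alone that lay under H3K27ac there. With only peaks nearest to its own TSS counted, the difference at TNNI1 was 0.989 kb, below TNNT2 (1.029 kb) and TPM3 (1.024 kb). TNNI1 also lost its first rank to TNNC2 with flanks of 2 kb (0.989 against 1.617 kb) and at a −log10 p of at least 10 (2.118 against 2.191 kb). It stayed first with lists of equal length, flanks of 50 kb and whole peaks. The 3 sites are printed on the plus strand with E-boxes in capitals, since they differ in number and kind of E-box: 1 CAGCTG in the intron, CAGGTG with CAGCTG at the LAD1 site of both arms, and 3 CAGCTG at the site of shSKP2.
TNNI1 intron 1, shared MYOD site, chr1:201419792-201419892: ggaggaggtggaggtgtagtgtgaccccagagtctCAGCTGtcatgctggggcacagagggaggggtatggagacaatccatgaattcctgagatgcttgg
LAD1 intron 1, shared MYOD site, chr1:201397255-201397355: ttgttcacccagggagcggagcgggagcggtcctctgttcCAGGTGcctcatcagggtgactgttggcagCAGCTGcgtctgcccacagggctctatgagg
LAD1 intron 1, shSKP2-only MYOD site, chr1:201396104-201396204: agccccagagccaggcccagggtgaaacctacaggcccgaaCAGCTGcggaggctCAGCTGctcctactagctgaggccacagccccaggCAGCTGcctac

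TNNI2 (chr11:1838981-1841680, plus strand), the fast skeletal troponin I, and TNNT3 (chr11:1919703-1938706, plus strand), the fast skeletal troponin T, lie on the same strand on either side of LSP1, and neither window held a peak in any of the 4 lists. The nearest peaks were the same for both genes and stood between them, within the gene body of LSP1. A MYOD site of both arms (chr11:1875670-1876508) began 34.0 kb past the end of TNNI2 and ended 43.2 kb before the start of TNNT3. It had 39 fragments (9.61-fold) in shSKP2 and 33 (9.14-fold) in shSCR. In shSKP2 an H3K27ac peak of 2019 bp (6.53-fold, 45 fragments) ran over the whole site. In shSCR a peak of 1088 bp (4.86-fold, 50 fragments) overlapped the last 385 bp of the site, beyond the end of the MYOD peak of that arm, and a peak of 322 bp (2.98-fold, 32 fragments) lay past the site. H3K27ac was thus wider in shSKP2 without more fragments at the summit. With flanks of 50 kb both windows held the whole block, and the difference in cover was 0.609 kb at TNNI2 and 0.237 kb at TNNT3, whose window also held a peak of 372 bp called in shSCR alone. Which gene the site serves cannot be read from peak positions. Its sequence is shown as the MYOD-bound region nearest to both genes, with E-boxes in capitals on the plus strand (CACCTG is CAGGTG read on the other strand).
LSP1, shared MYOD site between TNNI2 and TNNT3, chr11:1875788-1875888: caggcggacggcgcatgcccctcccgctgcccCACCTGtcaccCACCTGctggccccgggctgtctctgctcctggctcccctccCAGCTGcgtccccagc

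Troponin T ties the complex to tropomyosin. TNNT1, the slow skeletal form (chr19:55132698-55149206, minus strand), had 3.17 kb of H3K27ac in shSKP2 and 2.48 kb in shSCR, the largest cover of the 10 genes in shSCR. The strongest H3K27ac peak at the TSS measured 1498 bp with 91 fragments in shSKP2 and 1410 bp with 56 fragments in shSCR. The peak behind it, at 1.4 kb, had 61 fragments in shSKP2 and 39 in shSCR. Their ratios, 1.63 (exact interval 1.15 to 2.31) and 1.56 (1.03 to 2.40), lay above the depth ratio, but the local background that entered the fold was also higher in shSKP2, 19.6 to 19.8 fragments against 13.1 to 13.2 fragments in shSCR. On the fold scale the arms were therefore closer, 4.456 in shSKP2 and 4.010 in shSCR at the TSS. The part of the background in these and the other H3K27ac differences was not tested. A peak of 313 bp at 789 bp upstream was called in shSKP2 alone, at 2.33-fold.

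MYOD flanked the acetylated start of TNNT1 on both sides, and here the arms differed in opposite directions. At the site 1153 bp past the TSS, in intron 1 of the canonical transcript, shSKP2 had 44 fragments (6.93-fold) and shSCR had 55 (8.54-fold). At the site 598 bp upstream, shSKP2 had 54 fragments (8.51-fold) and shSCR had 36 (5.42-fold). The exact interval of the first ratio, 0.526 to 1.21, lay under the depth ratio of 1.31, and that of the second, 0.966 to 2.35, held it. A further MYOD peak, 9960 bp upstream in exon 12 of DNAAF3 and 1434 bp from the TSS of TNNI3, was called in shSCR alone (4.43-fold, 14 fragments). H3K27ac there was a single peak of 1979 bp in shSKP2, with 35 fragments at the summit, and 2 peaks with 1211 bp in sum in shSCR, with 21 fragments at the higher summit; part of the shSKP2 peak and 1 of the shSCR peaks lay beyond the window. The shSKP2 peak ran over the control MYOD site, which stood in the gap between the shSCR peaks, 69 bp from the nearer one. The upstream site is shown because it was the strongest MYOD peak of TNNT1 in shSKP2 and carried a single E-box, CAGGTG, in a G-rich stretch.
TNNT1, shared MYOD site upstream of the TSS, chr19:55149754-55149854, plus strand: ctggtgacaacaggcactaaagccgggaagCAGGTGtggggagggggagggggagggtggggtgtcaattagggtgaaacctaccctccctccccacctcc

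TNNT2, the cardiac troponin T, which is also made in developing skeletal muscle (chr1:201359008-201377764, minus strand), lies on the other side of LAD1. Its H3K27ac cover was 3.15 kb in shSKP2 and 2.12 kb in shSCR, in 3 places. At the TSS the peak was 1163 bp with 45 fragments in shSKP2 and 701 bp with 42 fragments in shSCR, a ratio of 1.07 that held the depth ratio (exact interval 0.688 to 1.67). Upstream, in intron 5 of LAD1, the acetylation was the highest of all 10 windows by fragments. The peak at 6.8 kb had 120 fragments (6.52-fold) in shSKP2 and 68 (5.00-fold) in shSCR, a ratio of 1.76 (1.30 to 2.41), and the peak at 6.0 kb had 82 in shSKP2 and 42 in shSCR, a ratio of 1.95 (1.33 to 2.90). The local background was 17.6 to 17.9 fragments in shSKP2 and 12.8 to 12.9 in shSCR. MYOD sat in the gap between these H3K27ac summits in both arms, 6336 bp upstream of the TSS, with 33 fragments (5.75-fold) in shSKP2 and 26 (5.30-fold) in shSCR. Its ratio of 1.27 was close to the depth ratio of 1.31. The gene body had a MYOD peak in shSKP2 alone, 5722 bp past the TSS in intron 4 (4.34-fold, 21 fragments), 4601 bp from H3K27ac. The upstream site is printed as the site with the most fragments of H3K27ac around it. It carried CAATTG and CAGGTG and had no CAGCTG within 50 bp of its summit.
TNNT2, shared MYOD site in LAD1 intron 5, chr1:201383966-201384066, plus strand: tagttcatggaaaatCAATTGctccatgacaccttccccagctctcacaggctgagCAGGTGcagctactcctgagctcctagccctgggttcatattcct

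The tropomyosins are coiled coils that lie along the actin filament. TPM2, the beta chain (chr9:35681992-35690056, minus strand), had the strongest MYOD peak of the 10 windows in both arms, at its own promoter 335 bp upstream of the TSS. This peak had 57 fragments (12.8-fold) in shSKP2 and 79 fragments (16.2-fold) in shSCR. The ratio of 0.722 (exact interval 0.504 to 1.03) lay under the depth ratio of 1.31. In shSKP2 a single H3K27ac peak of 2078 bp ran over the whole MYOD site of 665 bp. In shSCR there were 2 peaks of 779 and 919 bp with a gap between them, where the MYOD site began, and they covered 481 bp of the site. The summits were alike, with 33 fragments in shSKP2 and at most 31 in shSCR, so the difference in cover, 2.08 kb in shSKP2 against 1.70 kb in shSCR, came with the closed gap and the edges and not with a higher summit. The TPM2 site is shown because its summit stood between a pair of CAGCTG E-boxes.
TPM2, shared MYOD site at the promoter, chr9:35690210-35690310, plus strand: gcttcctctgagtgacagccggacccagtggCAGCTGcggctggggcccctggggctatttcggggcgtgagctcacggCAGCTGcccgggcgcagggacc

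TPM3, the slow alpha chain (chr1:154155308-154194648, minus strand), had H3K27ac in both arms only inside the gene, 9.2 kb past the canonical TSS and 233 bp from an alternative start of the same gene. This peak was 954 bp with 70 fragments (5.03-fold) in shSKP2 and 711 bp with 39 fragments (4.47-fold) in shSCR, and the local background there was 13.1 fragments in shSKP2 and 7.95 in shSCR. At the canonical promoter, 346 bp upstream of the TSS, a peak of 480 bp was called in shSKP2 alone, with 44 fragments. At 7.07-fold it was the H3K27ac peak with the highest fold in any of the 10 windows, and the shSCR list held no peak there. One more peak, at 5995 bp, was also called in shSKP2 alone, with 32 fragments. MYOD was called in shSCR alone, under the internal H3K27ac peak (3.47-fold, 13 fragments), the lowest fold of the MYOD peaks here. It is shown because it was the one MYOD site of these windows with no CANNTG within 50 bp of its summit.
TPM3, shSCR-only MYOD site, chr1:154182518-154182618, plus strand: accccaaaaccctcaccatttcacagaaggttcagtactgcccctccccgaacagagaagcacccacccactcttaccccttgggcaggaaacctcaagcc

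TPM1, the alpha chain (chr15:63042620-63071915, plus strand), had no peak at its promoter or in its body in any list. Its H3K27ac cover of 0.948 kb in shSKP2, against 0 kb in shSCR, came from 2 peaks upstream, at 7674 bp (479 bp, 3.90-fold, 20 fragments) and at 6992 bp (469 bp, 4.44-fold, 23 fragments). Both were among the weaker peaks by fragments. With the 2 H3K27ac lists shortened to equal length by -log10 p only the second was left, and with flanks of 2 kb neither was in the window. The nearest H3K27ac peak of shSCR was 85.7 kb from the gene. No MYOD peak lay within 539 kb of TPM1 in either arm, so the 10 genes include 1 with acetylation in shSKP2 and no MYOD near it in either arm.

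Within 2 kb of the members' own TSS, H3K27ac was present at 7 of 10 genes in shSKP2 and 6 of 10 in shSCR, against 51.4% of all genes in shSKP2 and 41.5% in shSCR. It covered more in shSKP2 at 6 of 10, against 47.6% of all genes. TNNC2 had 2059 bp there in shSKP2 and 1401 bp in shSCR, TNNT1 had 2526 bp in shSKP2 and 2069 bp in shSCR, and TNNI1 had 941 bp in shSKP2 and 420 bp in shSCR. MYOD was present there at 4 of 10 genes in each arm, against 10.8% of all genes in shSKP2 and 6.41% in shSCR. Among the troponins, the slow or cardiac genes TNNI1, TNNT1 and TNNT2 had acetylation that could be placed at their own start, that near TNNC1 had its summit nearer to the NISCH start, and of the fast genes TNNC2 had it and TNNI2 and TNNT3 did not.

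Across the windows the peaks shared by both arms gave a picture that differed between the antibodies. Of the 17 control H3K27ac peaks, all overlapped in shSKP2, 14 had a higher fold in shSKP2 and 14 were wider there (82.4% each), against 78.0% with a higher fold and 86.1% wider among all shared control peaks. At TNNC2, TNNT1 and TPM2 a single shSKP2 peak met 2 control peaks, and joining peaks that overlapped gave 15 shared regions. The ratio of fragments lay above the depth ratio, with an exact interval that did not reach it, at 9 regions, and at 2 of these it still held equal counts. Per control peak the median fold ratio was 1.12 for these genes and 1.20 for all shared control peaks, and the median ratio of widths was 2.25 for these and 1.64 for all. Per joined region of these genes the median ratio of widths was 1.34. Of 7 shared MYOD sites, 4 had a higher fold in shSKP2 and 3 a lower one, against 56.6% higher for all shared control peaks. The interval of the fragment ratio held the depth ratio at 5, and at TPM2 and at the TNNT1 intron it lay below. The median MYOD fold ratio was 1.03, and 1.04 for all. H3K27ac was thus higher in shSKP2 at most shared regions and MYOD had no common direction, and for both antibodies the fold ratios lay near those of the whole lists.

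**Figure D4:**
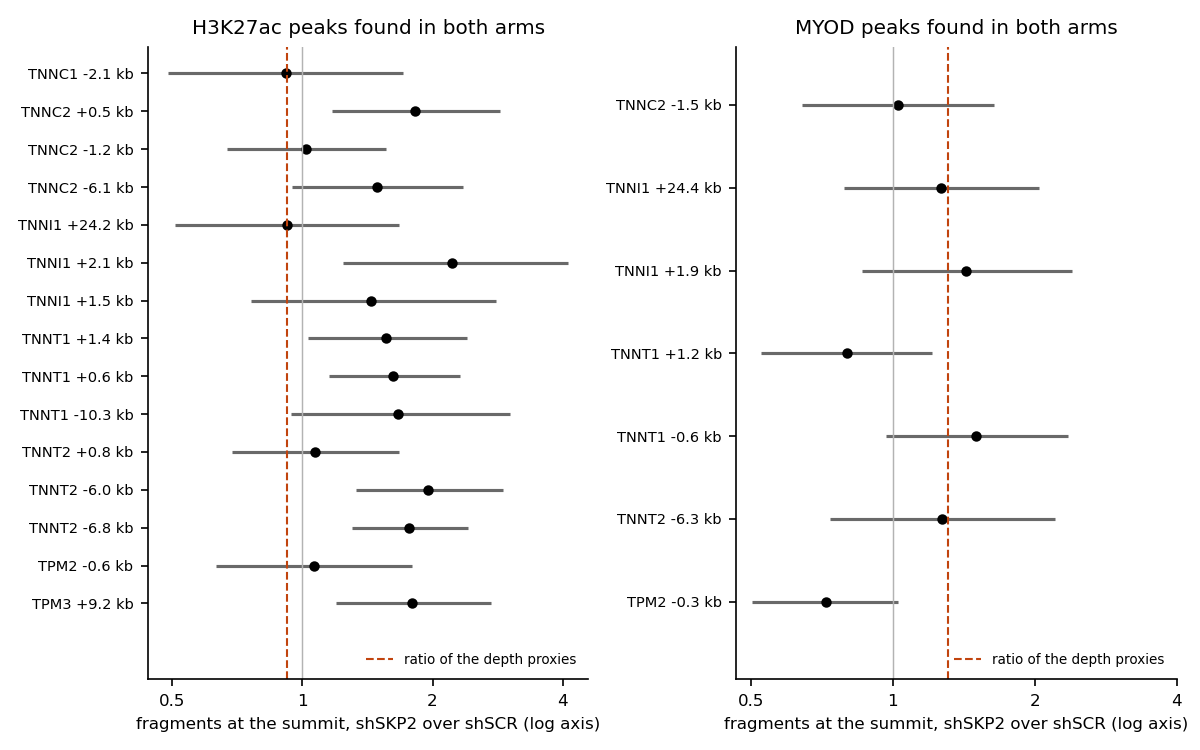
Fragments at the summit in shSKP2 over shSCR (log axis) at 15 H3K27ac regions and 7 MYOD sites called in both arms, with exact 95% intervals for counting error; labels give the gene and the distance of the shSKP2 summit from its TSS, and dashed lines mark the ratio of the depth proxies, 0.920 for H3K27ac and 1.31 for MYOD. At 9 of 15 H3K27ac regions the interval lies to the right of the dashed line, and at 2 of 7 MYOD sites to the left.

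H3K27ac overlapped 11 of the 14 MYOD sites of these windows in shSKP2 (78.6%, exact interval 49.2 to 95.3%) and 9 of 14 in shSCR (64.3%, 35.1 to 87.2%). The whole set of 10538 sites had 51.7% in shSKP2 and 34.0% in shSCR. All 7 sites that both arms shared were overlapped by H3K27ac in both arms. The matching share over all shared sites was not computed, and the whole set above also holds sites called in a single arm. The sites without H3K27ac in shSKP2 were 3 of the 4 that were called in shSKP2 alone, at TNNC1, TNNC2 and TNNT2. In shSKP2 H3K27ac also overlapped the sites called in shSCR alone, at TNNC2, TNNT1 and TPM3, and the shSKP2-only site near TNNI1. In shSCR it also overlapped the shSCR-only sites at TNNC2 and TPM3. The overlap was thus not confined to the sites present in both arms. The same 14 sites were scored in both arms, so the 2 intervals are not independent and cannot be used to compare the arms. Every site overlapped in shSCR was also overlapped in shSKP2. The shSCR-only site at TNNT1 and the shSKP2-only site near TNNI1 were overlapped in shSKP2 alone, with 1 library per arm.

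E-boxes (CANNTG on either strand) lay within 50 bp of the summit at 13 of 14 sites, beside 86.1% of all shSKP2 peaks and 87.6% of all shSCR peaks, and 41.2% and 41.6% of windows of the same 101 bp placed 2 kb away. CAGCTG was found at 10 of 14, beside 52.5% of all shSKP2 peaks and 56.2% of all shSCR peaks, and 4.67% and 4.77% of the windows 2 kb away. CAGGTG, or CACCTG read on the other strand, was found at 4 of 14, beside 37.0% and 33.0%. CATTCC or its complement was found at 2 of 14, beside 7.06% and 8.38%. Both MYOD sites that overlap a UTR, at TNNT1, held a CAGCTG, and their sequence is not printed. The E-box count gives no order to the sites: TPM2 with 2 CAGCTG was the strongest in both arms, while the site with 3 CAGCTG near TNNI1 was called in shSKP2 alone.

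The other genes of the thin filament were set beside these as a list of 15: TNNI3 and TPM4, the actins ACTA1 and ACTC1, nebulin, 4 tropomodulins, 3 leiomodins and 3 subunits of capping protein. H3K27ac cover was higher in shSKP2 at 12 of 15 and lower at TPM4 alone, against 66.8% higher and 3.92% lower over all genes. The median difference was 0.621 kb, against 0.4 kb for all genes. Cover was at least 2 times the control at 5 of 15, against 35.9% of all genes. A MYOD peak was found at 7 in shSKP2 and at 4 in shSCR, against 30.6% and 21.9% of all genes. TNNI3, the cardiac troponin I and the neighbour of TNNT1, had 4.925 kb in shSKP2 and 3.601 kb in shSCR, in a window that shares the peaks at the TNNT1 start. TPM4, the tropomyosin of many non-muscle cells, had 2.06 kb in shSKP2 and 2.14 kb in shSCR and no MYOD peak in either arm.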

How the data were processed

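Chromatin of RD cells fixed with formaldehyde was digested with micrococcal nuclease and immunoprecipitated with Drosophila chromatin as spike-in. Reads were aligned with BWA (0.7.17 in the submitters' processing notes) to GRCh38, and the same notes list MACS3 and deepTools, and dm3 as the Drosophila build. The authors called narrow peaks per library against an input with all duplicates kept, at a p threshold equal to a −log10 p of 5 (under which 0 peaks of these windows lay), and removed an exclusion list of regions. Whether the spike-in scaling entered peak calling is not stated. For each peak the authors deposited a score, the fold enrichment at the summit over local background, and the −log10 p-value and q-value. Fold and p-value together give the fragments and the background at the summit, and whole numbers were found for 99.98% to 100% of distinct pairs (tolerance 0.001 in −log10 p).

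Genes and the canonical TSS came from GENCODE release 44, sequence from hg38. Cover counted each base of the window under a peak once. Peaks were shared when they overlapped by at least 1 bp, and MYOD sites were the merged union of both lists. Peaks outside chromosomes 1 to 22, X and Y were left out (1 per H3K27ac list). Shares and ratios of fragments carry exact Clopper-Pearson 95% intervals. The genes, the other gene lists and the comparisons were chosen with earlier results of these data known. All 10 genes are named, with every MYOD peak. Alternatives were −log10 p of at least 5 and 10, lists of equal length, flanks of 2 and 50 kb and reciprocal overlap of 50%, and 2 were chosen after seeing the data: peaks nearest to the gene's own TSS, and whole peaks at the window edge. The code was tested on simulated data. Python 3.11.15 with numpy 2.4.6, pandas 2.3.3, scipy 1.17.1 and matplotlib 3.10.9, and samtools 1.23.1 were used.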

Additional observations from a re-analysis of the deposited data

How the results depend on the processing

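The higher H3K27ac cover in shSKP2 kept its sign in the sum over the 10 genes under the 7 alternatives run for it, with a ratio of 1.60 to 2.18. Among them, a −log10 p of at least 5 removed 0 peaks of these windows and so could not change the sum. The sum of differences, 8.65 kb, was 4.81 kb with flanks of 2 kb, 21.99 kb with flanks of 50 kb and 5.45 kb with only peaks nearest to the gene's own TSS, an alternative chosen after seeing the data. With flanks of 2 kb, 1 gene had less cover in shSKP2 (TNNC1, -0.087 kb), 2 had at least 2 times the control cover, and 7 MYOD sites carried H3K27ac in shSKP2. With flanks of 50 kb, 7 MYOD peaks of shSKP2 had no control counterpart. At a −log10 p of at least 10, 5 MYOD sites carried H3K27ac in shSCR. With a reciprocal overlap of 50%, 0 MYOD sites carried H3K27ac in shSKP2 and 3 in shSCR, so the order of the arms was reversed. An H3K27ac peak over 2 times as wide as the site cannot meet this rule. Narrower peaks that overlapped a site only in part also failed it. At TNNI1 intron 1, for example, shSKP2 peaks of 722 and 394 bp met a site of 860 bp. Of the single-gene differences, 22 moved by over 1.5 times and 1 changed sign. No paired analysis was possible because each group holds 1 library. A peak missing from a list means only that the caller's threshold was not reached there. Read totals are unknown, summits are maxima of the called peaks, and counting intervals hold no spread between cultures.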
